A study of Mus musculus with 8 samples.

Results

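Nephronectin, encoded by Npnt, and the integrin alpha chains were examined in gastrocnemius muscle of mice fed ursolic acid. The 10 genes were Npnt, Itga1, Itga2, Itga3, Itga5, Itga6, Itga7, Itga8, Itga9 and Itgav. They were selected on measured values: Npnt was picked because its difference between the diets was among the clearest of these arrays, and the alpha chains were added as its receptor family. The diet contrast in the members is therefore given as a description, with no test. Of the 10 genes, 9 had an array row annotated to them alone, among 14860 genes with such a row. The row of Itga1, a collagen receptor chain, is also annotated to Pelo, so it was not attributed to either gene.

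The study asked how dietary ursolic acid, a triterpenoid of fruit peel, alters muscle mRNA. The ursolic acid group ate standard chow with 0.27% ursolic acid for 5 weeks, and the control group ate standard chow without it. All mice were 12-week-old C57BL/6 males with free access to food. Each of the 4 samples of a group was gastrocnemius RNA pooled from 2 mice, so 8 arrays were compared and the spread between single mice was not measured. Values are log2 expression, and a difference is ursolic acid minus control on that scale. The medians of the arrays ran from 5.55 to 5.61. Precision is limited by having 4 arrays in each group. Control sample 1 had the lowest mean Spearman correlation with the other arrays, 0.977 against at least 0.983. Samples were grouped as titled, which the treatment field repeats. A separate description line says otherwise for 4 of the 8: it calls ursolic acid samples 1 and 3 untreated and control samples 2 and 4 treated. Defining genes of skeletal muscle fibres were bright in every array: Tnnt3, fast troponin T, averaged 12.46 ± 0.09 in the ursolic acid group and 12.50 ± 0.06 in the control group (SD, n = 4 each).

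Integrins are receptors made of 1 alpha and 1 beta chain that anchor cells to the extracellular matrix and signal across the membrane. The alpha chain largely sets which matrix protein is bound. Nephronectin is a secreted basement membrane protein with EGF-like repeats, an RGD motif that integrins recognise, and a MAM domain. It is best known as the ligand of integrin α8β1 in the developing mouse kidney, where loss of either partner impairs kidney formation. In muscle, the laminin receptor α7β1 links fibres to the basement membrane at the ends and along the length of the fibre.

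The regions before the transcription starts of Npnt and Itga8 are shown because they belong to the ligand, the member with the widest gap between the diets, and to its best known receptor chain, which had overlapping groups. Each is the 250 bases before an annotated start, 5′ to 3′, from RefSeq on build GRCm38.p6. The Npnt window is chr3:132950292-132950541 on the minus strand, and the Itga8 window is chr2:12301945-12302194 on the minus strand. The annotated Itga8 gene reaches to base 12301985, so the 3′ end of its window lies within the gene, unlike that of Npnt. Capitals mark the GC box GGGCGG on either strand.
Npnt: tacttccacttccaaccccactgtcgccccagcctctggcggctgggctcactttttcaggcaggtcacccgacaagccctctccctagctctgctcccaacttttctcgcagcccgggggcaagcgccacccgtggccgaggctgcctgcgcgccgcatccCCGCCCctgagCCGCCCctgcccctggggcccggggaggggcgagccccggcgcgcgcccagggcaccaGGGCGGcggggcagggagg
Itga8: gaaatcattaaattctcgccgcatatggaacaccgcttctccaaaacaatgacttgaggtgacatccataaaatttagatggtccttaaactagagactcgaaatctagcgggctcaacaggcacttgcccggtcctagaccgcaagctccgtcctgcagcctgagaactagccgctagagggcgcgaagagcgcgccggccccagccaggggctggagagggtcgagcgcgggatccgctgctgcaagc
The Npnt window is rich in G and C, at 74%, and 95.1% of 32851 mouse windows of this length have a lower share. The Itga8 window is at 56.4%, above 62.4% of the windows. The GC box occurs 3 times in the Npnt window, starting at bases 163, 174 and 232 from its 5′ end, with no overlap between the matches. It is in 32.7% of all windows and is not among the letters of the Itga8 window. The other motifs searched, on both strands, match neither window. They were the TATA box TATAAA (in 12.4% of all windows), the E-box CACGTG (6.02%), the E-box CAGCTG (13%), the cyclic AMP response element TGACGTCA (1.55%) and the AP-1 motif TGANTCA (6.75%). RefSeq windows were found for 8 of the 10 members, all but Itga6 and Itga7, and Npnt has another annotated start whose window held none of these 6 motifs.

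Nephronectin mRNA was higher in muscle from mice fed ursolic acid. Npnt (array row 6909509) read 6.48, 6.32, 6.24 and 6.26 in ursolic acid samples 1 to 4, against 5.69, 5.82, 5.78 and 5.94 in control samples 1 to 4. Every ursolic acid array lay above every control array, with a gap of 0.30 between the lowest of the first and the highest of the second. The means were 6.33 ± 0.11 in the ursolic acid group and 5.81 ± 0.10 in the control group (SD, n = 4 each). The difference was 0.52 ± 0.08 (SE), or 1.43-fold, with a 95% interval of 1.27-fold to 1.62-fold. Of all 16755 rows, 2.66% had every ursolic acid array above every control array; since Npnt was chosen by this contrast, nothing is read from its being one of them. In these pooled bulk samples, more cells that express a gene and more RNA per cell cannot be told apart. In the 4 samples whose labels agree, ursolic acid samples 2 and 4 against control samples 1 and 3, the Npnt difference was 0.55 ± 0.10 (SE). With the gap between the titled groups, any such subset gives a positive difference, so this value is no check of the labels.

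**Figure D1:**
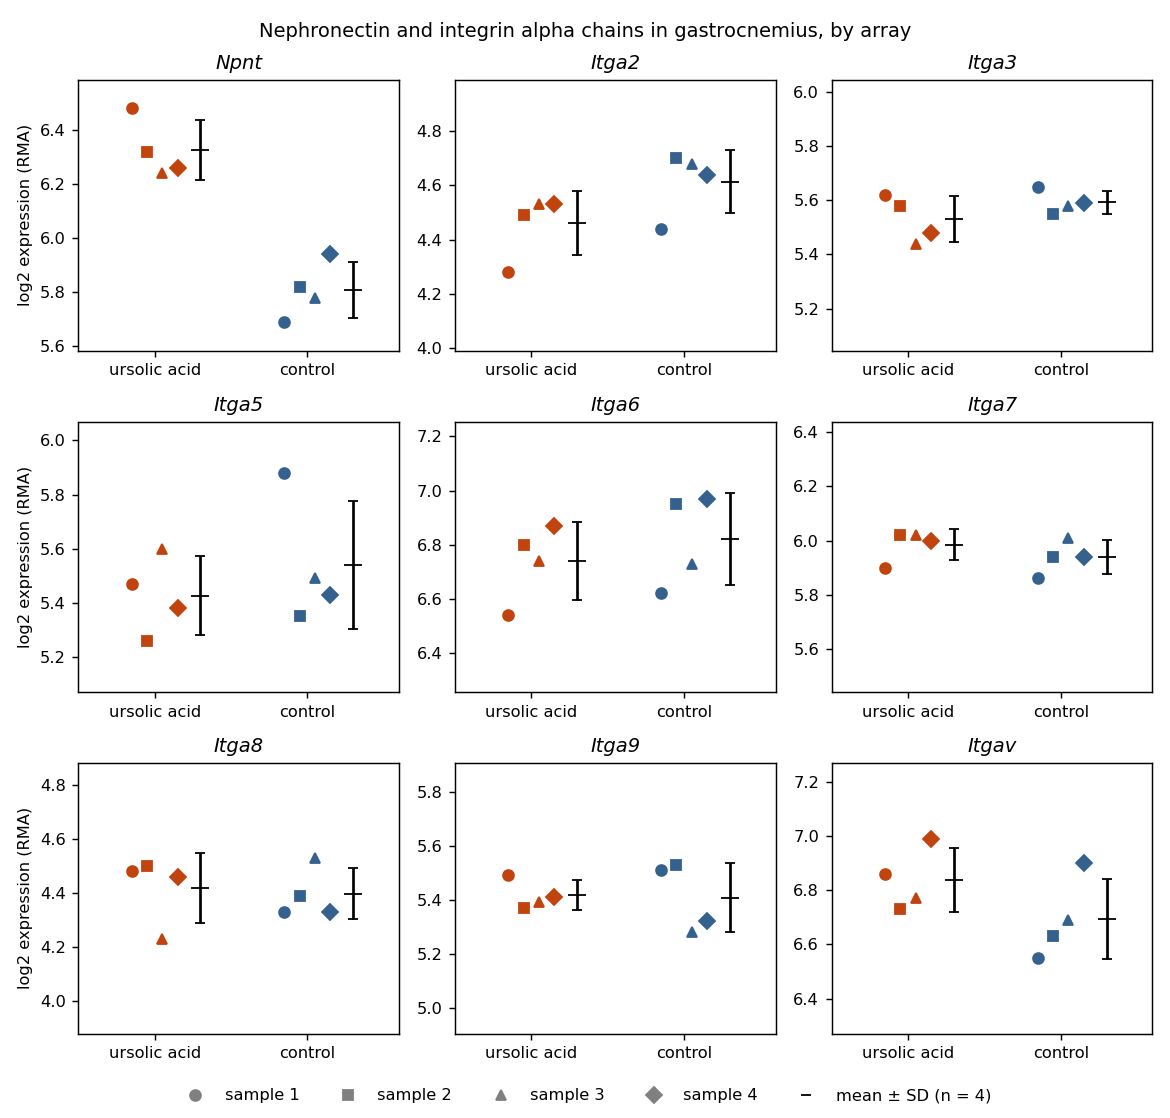
Log2 expression (vertical axes, each spanning the same width) of the 9 members with their own array row, by group, with 1 point per array, a shape per sample number and the mean ± SD beside them. The Npnt arrays of the ursolic acid group lie at 6.24 to 6.48 and those of the control group at 5.69 to 5.94, while the groups overlap in each of the 8 alpha chains.

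The 8 measured alpha chains had small differences in both directions, and their groups overlapped in 8 of 8. Most rows overlapped too: the groups separated upward in 2.66% of all rows and downward in 1.83%. The overlap is therefore not particular to these chains. The ursolic acid mean was higher in 4 chains and lower in 4, against a higher mean in 45.5% of all rows. Their median difference was −0.03, beside −0.01 over all rows, and the range ran from −0.15 for Itga2 to 0.14 for Itgav. All 8 intervals included 0, as did those of most rows: 1185 of 16755 had an unadjusted limma p under 0.05. The bounds farthest from 0 were −0.38 for Itga5 and 0.35 for Itgav.

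Among the chains of RGD-binding integrins, Itga8 (row 6884750), the nephronectin receptor chain, read 4.48, 4.50, 4.23 and 4.46 with ursolic acid, against 4.33, 4.39, 4.53 and 4.33 in controls. Its lowest array belonged to the ursolic acid group and its highest to the control group. The difference was 0.02 ± 0.08 (SE), with an interval of −0.16 to 0.21. This row is dim: its means, 4.42 with ursolic acid and 4.40 in controls, lie below the array medians of 5.55 to 5.61. Its signal over background is not known, so the small difference says little about the receptor chain. Itgav (row 6878655), the alpha chain of the vitronectin receptors, read 6.86, 6.73, 6.77 and 6.99 with ursolic acid, against 6.55, 6.63, 6.69 and 6.90 in controls. Only ursolic acid sample 4 was above all controls, and control sample 4 exceeded the other 3 ursolic acid arrays. The difference was 0.14 ± 0.09 (SE), the highest of the alpha chains. Itga5 (row 6838809), the chain of the classical fibronectin receptor, read 5.47, 5.26, 5.60 and 5.38 with ursolic acid, against 5.88, 5.35, 5.49 and 5.43 in controls. Control sample 1 was the highest of the 8 arrays. The difference was −0.11 ± 0.12 (SE), and without control sample 1 it was 0.0019.

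The laminin receptor chains also overlapped between the diets. Itga7 (row 6771718), the chain of the muscle fibre laminin receptor, read 5.90, 6.02, 6.02 and 6.00 with ursolic acid, against 5.86, 5.94, 6.01 and 5.94 in controls. All 8 arrays lay within a narrow band, and the difference was 0.05 ± 0.06 (SE), with an interval of −0.09 to 0.19. Itga6 (row 6878031), a laminin receptor chain of endothelium, nerve and epithelium, read 6.54, 6.80, 6.74 and 6.87 with ursolic acid, against 6.62, 6.95, 6.73 and 6.97 in controls. In each group samples 2 and 4 were the highest. Its difference was −0.08 ± 0.10 (SE). Itga3 (row 6791017), which pairs with beta 1 to bind laminins of epithelial basement membranes, read 5.62, 5.58, 5.44 and 5.48 with ursolic acid, against 5.65, 5.55, 5.58 and 5.59 in controls. Ursolic acid samples 3 and 4 lay below all controls and the others did not, with a difference of −0.06 ± 0.07 (SE).

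Of the other chains, Itga2 (row 6816247), a collagen receptor chain of platelets and epithelia, read 4.28, 4.49, 4.53 and 4.53 with ursolic acid, against 4.44, 4.70, 4.68 and 4.64 in controls. Sample 1 was the lowest of its group under both diets, and control sample 1 lay below 3 of the ursolic acid arrays. The difference was −0.15 ± 0.08 (SE), with an interval of −0.34 to 0.04. With single arrays left out, it ran from −0.21 ± 0.08 without control sample 1 to −0.09 ± 0.08 without ursolic acid sample 1 (SE). Itga9 (row 6992855), which binds tenascin C, osteopontin and VCAM-1, read 5.49, 5.37, 5.39 and 5.41 with ursolic acid, against 5.51, 5.53, 5.28 and 5.32 in controls. The control arrays enclosed all the ursolic acid arrays, and the difference was 0.01 ± 0.08 (SE).

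**Figure D2:**
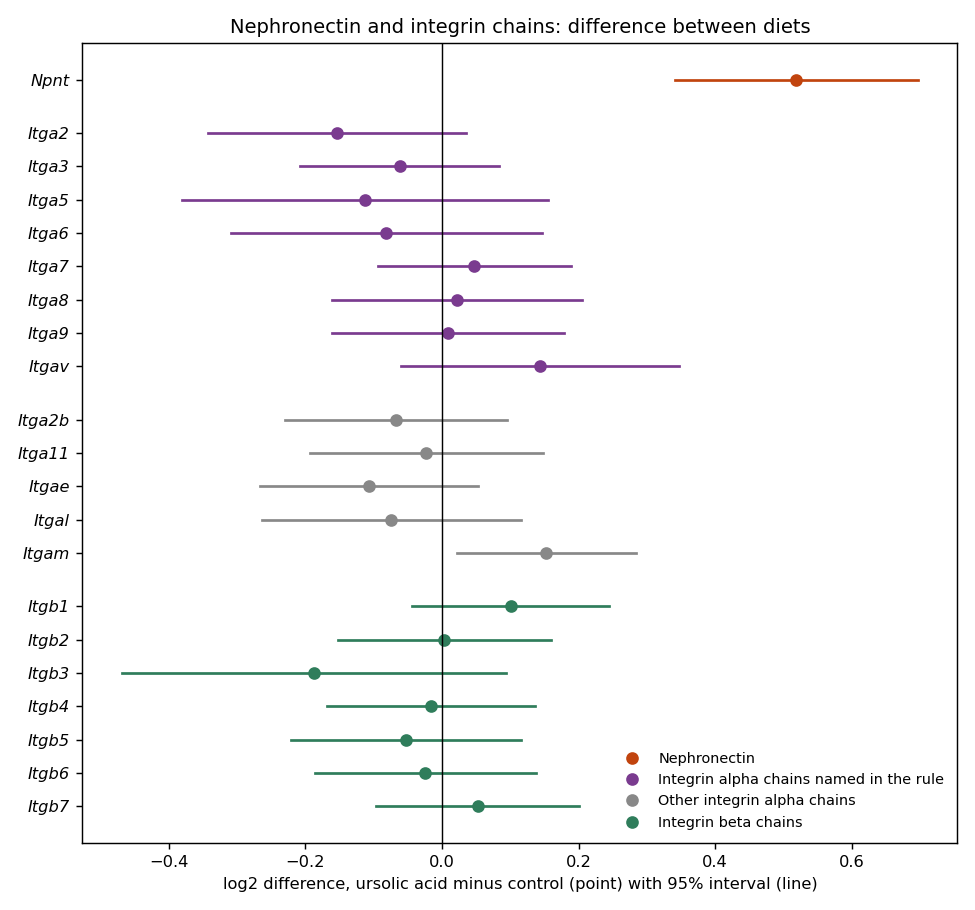
Difference in log2 expression, ursolic acid minus control (horizontal axis), for Npnt, the 8 alpha chains chosen with it, 5 other alpha chains and 7 beta chains, as a point with its 95% interval. Npnt stands at 0.52, and the integrin chains lie between −0.19 and 0.15.

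The beta chains, which complete each receptor, are not among the members and were tested in the fit across all rows. Their list, like the lists that follow, was also chosen with earlier results of these data known. At an adjusted limma p of 0.05, 0% of the 16755 rows were called (0 rows, with 0.0845 the smallest value; 12 with a variance trend and robust moderation). Before adjustment, 1185 rows were under 0.05, of which 683 (4.08% of all rows) were higher and 502 (3%) lower with ursolic acid. Of 7 measured beta chains, 3 were higher and 4 lower, 0 passed either threshold, and the median difference was −0.02. Without control sample 1, 4 of 7 were higher and the median was 0.03. Itgb1, the beta chain that pairs with all 8 measured alpha chains, read 9.40, 9.30, 9.35 and 9.46 with ursolic acid, against 9.28, 9.23, 9.23 and 9.36 in controls. The groups overlapped, with a difference of 0.10 ± 0.06 (SE) and a limma adjusted p of 0.808. Itgb3, the partner of the alpha V chain and of platelet Itga2b, read 5.16, 5.15, 5.17 and 5.15 with ursolic acid, against 5.79, 5.19, 5.18 and 5.23 in controls. All 4 ursolic acid arrays were below all controls, as in 1.83% of rows, but control sample 1 supplied most of the difference of −0.19 ± 0.13 (SE), which was −0.04 ± 0.06 without it. Itgb5, Itgb6 and Itgb4 had differences of −0.05, −0.02 and −0.02. Itgb7 and Itgb2, the beta chains of leukocytes, had 0.05 and 0.00.

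Of the alpha chains outside the chosen set, 5 had a row of their own, 1 higher and 4 lower. Itgam, CD11b of myeloid cells, read 5.00, 4.97, 4.92 and 4.96 with ursolic acid, against 4.85, 4.84, 4.74 and 4.79 in controls. The groups did not overlap, as in 2.66% of rows upward. The Itgam difference was 0.15 ± 0.06 (SE), with an unadjusted p of 0.0266 and an adjusted p of 0.648 by limma. Itgae and Itgal, of lymphocytes, had differences of −0.11 and −0.07. Itga2b of platelets and Itga11, a collagen receptor chain of fibroblasts, had −0.07 and −0.02.

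Ligands and relatives of nephronectin did not share its pattern as a list. Of 16 measured genes 7 had a higher mean and 9 a lower one. The median difference was −0.03, and 1 gene passed an unadjusted p of 0.05, in the lower direction, which 3% of all rows did. Egfl6, the closest relative of Npnt, read 4.63, 4.79, 4.70 and 4.91 with ursolic acid, against 4.84, 4.78, 4.91 and 4.92 in controls. The groups overlapped, with a difference of −0.10 ± 0.08 (SE) and a limma adjusted p of 0.843. Fn1, fibronectin, had a difference of 0.26 ± 0.12 (SE), with ursolic acid samples 1 and 4 above all controls. Vtn, vitronectin, had −0.12 ± 0.06 (SE), and its limma adjusted p was 0.735. All 4 ursolic acid arrays of Vtn were below all controls, as in 1.83% of rows. Thbs1, the matrix glycoprotein thrombospondin 1, was the gene past an unadjusted p of 0.05, at 5.93, 6.04, 5.86 and 6.24 with ursolic acid and 7.12, 6.32, 6.27 and 6.22 in controls. Control sample 1 was the highest array here too, and the difference of −0.46 ± 0.19 (SE, limma adjusted p = 0.658) was −0.25 ± 0.10 without it. Leaving that sample out changed the counts of this list at an unadjusted p of 0.05 to 1 higher and 2 lower.

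Basement membrane and collagen genes likewise gave small differences. Of 17 laminin, nidogen, type IV collagen and related genes, 7 had a higher mean and 10 a lower one. The median was −0.02, and 1 gene passed an unadjusted p of 0.05, upward, which 4.08% of all rows did. That gene was Lama2, the laminin alpha chain of the muscle basement membrane, at 7.21, 7.11, 7.04 and 7.36 with ursolic acid and 6.94, 6.86, 6.85 and 7.12 in controls. Only control sample 4 reached into the ursolic acid range, and the difference was 0.24 ± 0.09 (SE, limma adjusted p = 0.641). Without control sample 1, 2 genes of the list passed upward. Nid1, Agrn and Col4a6 had differences of 0.17, −0.09 and −0.13, with limma adjusted p of 0.772, 0.826 and 0.735. In Col4a6 every ursolic acid array lay below every control array, as in 1.83% of rows. Of 8 fibrillar and type VI collagens 7 were higher, with a median of 0.06, and Col6a1 passed an unadjusted p of 0.05 with a difference of 0.19 ± 0.08 (SE, limma adjusted p = 0.684).

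Inside the cell, integrin tails are tied to actin by talin, vinculin and their partners. Of 26 measured adaptors 15 had a higher mean and 11 a lower one, around a median of 0.01. Before adjustment, 1 adaptor passed a p of 0.05 upward and 2 passed downward, beside 4.08% and 3% of all rows. Vcl, vinculin, read 7.83, 7.72, 7.63 and 7.81 with ursolic acid, against 7.47, 7.54, 7.51 and 7.53 in controls. The groups did not overlap, as in 2.66% of rows upward, and the difference was 0.23 ± 0.07 (SE, limma adjusted p = 0.394). Tln2, talin 2, and Actn4, an alpha actinin, had differences of −0.18 ± 0.07 and −0.16 ± 0.07 (SE), with limma adjusted p of 0.648 and 0.691. Without control sample 1 neither passed an unadjusted p of 0.05, while their differences stayed close, at −0.16 ± 0.07 for Tln2 and −0.16 ± 0.08 for Actn4 (SE, limma adjusted p = 0.715 for each). Lims1, the PINCH adaptor of integrin-linked kinase, had 0.15 ± 0.07 (SE).

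Among membrane partners of integrins, 6 of 9 measured genes had a higher mean, with a median difference of 0.01. Upward, 2 passed an unadjusted p of 0.05, which 4.08% of all rows did. Cd151, a tetraspanin bound to laminin-binding integrins, read 7.56, 7.52, 7.54 and 7.62 with ursolic acid, against 7.34, 7.28, 7.24 and 7.47 in controls. Cd47, the integrin-associated protein, read 7.40, 7.37, 7.46 and 7.53 with ursolic acid, against 7.15, 7.27, 7.23 and 7.34 in controls. In both genes every ursolic acid array lay above every control array, as in 2.66% of rows. Their differences were 0.23 ± 0.07 and 0.19 ± 0.07 (SE), with limma adjusted p of 0.445 and 0.575. Over the 7 lists together, 88 of 109 genes were measured, and 0 passed limma's adjusted p over all rows. Before adjustment, 6.82% passed a limma p of 0.05 upward and 3.41% downward, beside 4.08% and 3% of all rows. These shares rest on 6 and 3 genes, so nothing is read from them.

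Many but not all markers on the list of macrophages and other leukocytes differed between the same arrays as Npnt. Of 16 measured markers 15 had a higher mean with ursolic acid, against 45.5% of all rows. Before adjustment 11 of them passed a limma p of 0.05 upward, against 4.08% of all rows, and 0 did after it. The list was chosen with earlier results of these data known, so these counts are descriptions and no test of the list. Tyrobp, a signalling adaptor of myeloid cells, averaged 8.12 with ursolic acid and 7.43 in controls. Ctss, a lysosomal protease, averaged 7.99 and 7.28, and C1qb, of the complement complex C1, averaged 6.74 and 6.38, in the same order of groups. Their summed level, the log2 of the sum of unlogged values, was 10.30 to 10.54 with ursolic acid and 9.86 to 10.08 in controls, so the groups did not overlap. Lyz2 was the unmeasured marker. The dimmest marker was Ms4a1 of B cells, at 3.71 with ursolic acid and 3.67 in controls, and no value in these arrays is 0. The lymphocyte markers Cd3e, Cd79a and Ms4a1 did not pass an unadjusted p of 0.05, with differences of 0.12, −0.05 and 0.03. Fcer1g and C1qa did not pass it either, at 0.01 and 0.26, and the groups overlapped in each of these genes. Of 10 fibroblast markers 9 were higher and 4 passed an unadjusted p of 0.05 upward, beside the same shares of all rows. Their summed levels overlapped, at 12.00 to 12.30 with ursolic acid and 11.89 to 12.06 in controls. The part of these cells in the Npnt difference was not tested.

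The summed levels of the other marker lists also overlapped between the groups. Of 11 endothelial markers 4 were higher, with summed levels of 10.18 to 10.31 with ursolic acid and 10.24 to 10.32 in controls. Of 10 smooth muscle and pericyte markers 4 were higher, with 11.37 to 11.56 and 11.45 to 11.58 in the same order of groups. Cspg4, the pericyte proteoglycan NG2, had every ursolic acid array above every control array, as in 2.66% of rows. Its difference was 0.14 ± 0.06 (SE, limma adjusted p = 0.727). Of 7 satellite cell markers 1 was higher, with 8.57 to 8.68 with ursolic acid and 8.64 to 8.82 in controls, and Sdc4 was lower at an unadjusted p of 0.0394. Of 8 muscle fibre markers 4 were higher, with 14.71 to 14.85 with ursolic acid and 14.78 to 14.82 in controls. Adipocyte, tendon and Schwann cell markers were higher in 3 of 6, 3 of 4 and 4 of 5, with median differences of 0.02, 0.07 and 0.05. Thbs4, the tendon matrix protein thrombospondin 4, was higher by 0.26 ± 0.10 (SE), at an unadjusted p of 0.0246 and an adjusted p of 0.634 by limma. Without control sample 1 the markers with a higher mean numbered 5 of 6 for adipocytes and 2 of 7 for satellite cells, and 1 endothelial marker was lower at an unadjusted p of 0.05.

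Grouping the arrays by the free-text description gave another view, which the choice of the alpha chains did not use. The samples described as treated are number 2 and 4 of each titled group, and those described as untreated are number 1 and 3. Npnt was chosen by the contrast of the titles, and each class mixes both titled groups. With its gap between those groups, Npnt had to overlap between the classes, so nothing is read from that. Its difference by description was 0.034 ± 0.18 (SE). Itga6 followed the description. It read 6.80 to 6.97 in the 4 arrays described as treated and 6.54 to 6.74 in the 4 described as untreated, a difference of 0.24 ± 0.07 (SE, limma unadjusted p = 0.00633, adjusted p = 0.344). Itga5 did so in the opposite direction, at 5.26 to 5.43 in arrays described as treated and 5.47 to 5.88 in those described as untreated, a difference of −0.26 ± 0.09 (SE, limma adjusted p = 0.365). The description classes did not overlap in these 2 of 9 members, or 22.2%, against 7.39% of all rows. By title the groups did not overlap in 2.66% of rows upward and 1.83% downward. Under the description limma called 0 rows after adjustment, while 2098 had an unadjusted p under 0.05, more than the 1185 by title. The description thus separated the arrays in more rows than the titled diets did, and the cause was not tested.

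**Figure D3:**
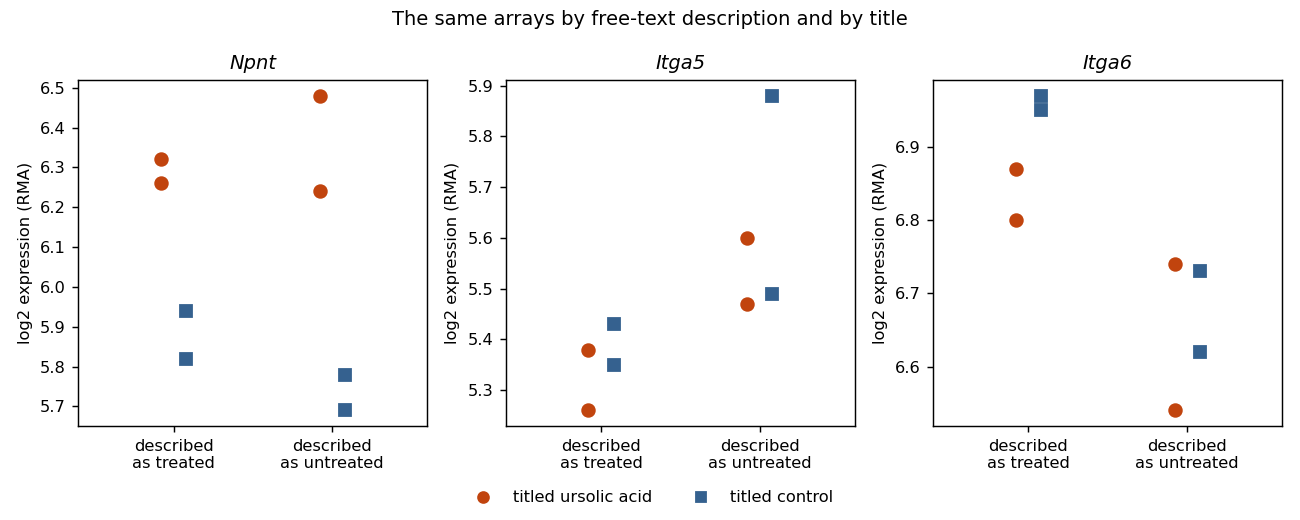
Log2 expression (vertical axes) of Npnt, Itga5 and Itga6 in the 8 arrays, placed by the free-text description, with circles for arrays titled ursolic acid and squares for arrays titled control. Npnt separates circles from squares, while Itga5 and Itga6 separate the description classes, at 6.80 to 6.97 against 6.54 to 6.74 for Itga6.

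Some members varied together over the arrays and others in opposite directions. Over the 8 arrays, Pearson's r of Npnt with the alpha chains ran from −0.62 for Itga2 to 0.64 for Itgav. Among all 36 pairs of members the highest r was 0.79, between Itga2 and Itga6, and the lowest was −0.74, between Itga3 and Itga7. After the mean of each group was taken away, the highest was 0.91, between Itga2 and Itga7, and the lowest was −0.81, between Itga2 and Itga3; Itga2 and Itga6 were at 0.80. These values describe 8 arrays that share the 2 diets. Npnt and Itga8, the ligand and its receptor chain, had an r of 0.19, with Itga8 read from a dim row.

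The genes most like Npnt over the 8 arrays were Cd74, the class II invariant chain and one of the leukocyte markers (r = 0.982), Atic of purine synthesis (0.980), Cryz, a quinone reductase (0.976), Blvra, biliverdin reductase (0.976), and Ahsa2 (0.972). Each also had a positive difference between the diets, from 0.18 for Ahsa2 to 0.43 for Cd74, so the contrast itself enters these values. After the mean of each group was taken away, the 5 closest were Cd300lg (0.967), the lysosomal membrane protein gene Scarb2 (0.966), Igf1, insulin-like growth factor 1 (0.965), Cttn, cortactin (0.962), and the proteasome gene Psmd2 (0.952). Of these 5, Igf1 alone was as close over the undivided 8 arrays, at 0.963, and Cd300lg was at −0.690 there. For Itga8, Tnfsf10 (0.963), Pelp1 (0.941) and Foxp1 (0.939) came first, followed by Mettl7b (0.938) and Cyp2d22 (0.930). Tnfsf10 and Foxp1 were also among its 5 closest without the group means, at 0.970 each, with Rnf150 (0.977), Donson (0.965) and Svbp (0.963). With so few arrays and so many genes compared, these are descriptions.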

How the data were processed

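RNA of 8 pooled gastrocnemius samples was measured on 1-colour arrays. The deposited values are on a log scale, taken as log2, and were made by the authors with RMA on build mm9, per the submitters' processing notes; the sources used here do not give software, version or row filters. No detection call is given, so the signal over background of a row is not known. Of 16755 rows, the platform annotation gives 14996 a single symbol, 1019 several and 740 none, and only the first were named, with symbols updated through RefSeq gene numbers. The model, diet alone over all rows, used lmFit and eBayes (limma 3.58.1, R 4.3.3); tests were two-sided, p-values were adjusted by Benjamini-Hochberg across the whole table (threshold 0.05), and intervals are 95%. The fit was tested on simulated data. The members and the 7 adhesion and 9 marker lists were chosen with earlier results of these data known. Named from each list were up to 4 genes with the smallest p, and all other integrin chains. The 5 genes most like Npnt and Itga8 and up to 3 bright markers were also named. Lyz2, Ms4a1, Cd3e, Cd79a, Fcer1g, C1qa, Lum, Cspg4, Thbs4 and Sdc4 fall outside this rule and were named after their values were seen. P-values measure the spread between pooled samples. Alternatives were the replicate number as a block, other normalizations, array weights, a variance trend, a level filter, left-out samples and the description as grouping or covariate.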

Additional observations from a re-analysis of the deposited data

Results flagged for a closer look

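In 18 sets of 4 arrays (9 members in 2 groups), 3 held a lone array at a distance from the rest; about 1 in 20 would by chance. The value given is the gap to the nearest other array divided by the range of the group. Ursolic acid sample 1 was low for Itga2 (0.842) and for Itga7 (0.839). Ursolic acid sample 3 was low for Itga8 (0.857). Npnt had no such array in either group.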

How the results depend on the processing

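The Npnt difference, whose sign its choice fixes, was between 0.47 and 0.56 in 14 alternatives: the replicate block (0.52, with an SE of 0.09), median centring, quantile normalization, array weights, each sample left out, samples with agreeing labels and the description as a covariate. Grouped by the description it was 0.034; that grouping mixes the titled groups by its construction. The number of members with a positive difference was 4 to 6 of 9 in all alternatives. Signs differed from the reported one in 4 of 14 alternatives for Itga9 and in 1 of 14 each for Itga5, Itga6 and Itga8. The cause was not tested. Among the 14, the replicate block and the description covariate are balanced over the diets. They could change an SE but no difference or sign, so their agreement is no check. In samples with agreeing labels, Itga5 was at −0.37 and Itga6 at 0.16. By limma, 0 rows passed an adjusted p of 0.05 in the main setting, with 1185 at an unadjusted p of 0.05, and 0 passed with the replicate block. The count was 23 with array weights, 27 after dropping rows under the median level, 12 with a variance trend and robust moderation, and 20 at an adjusted p of 0.10. Same-numbered samples of the diets had deviations correlated at 0.02 to 0.19, and no pairing was assumed. The other rows of a member could not be tried, since each had 1 row. The values without control sample 1 for the adhesion genes were added after seeing the data.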
